A study of Mus musculus with 4 samples.

Results

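The comparison set the liver transcriptome of CypD-/- mice treated with lipopolysaccharide (LPS) against that of wild-type (WT) mice given the same dose. Its members were all genes that the deposited table of this comparison lists, 963 genes of the 3111 that appear in at least 1 of the 4 tables of the study. The methods describe male C57BL/6 mice of 16 to 20 weeks, a description that the Y-linked transcripts of the WT + LPS library go against. Livers were taken 24 h after an intraperitoneal injection of 40 mg/kg LPS or of the vehicle, phosphate-buffered saline. The CypD-/- mice lack the gene *Ppif* in all cells from birth, with exons 2 to 4 deleted. The 4 groups were WT control, WT + LPS, CypD-/- control and CypD-/- + LPS, and the RNA of 3 mice was pooled into 1 library for each. Thus no fold given here has a replicate error, and the q-value of a gene compares the reads of 2 libraries, not the genotypes. The authors listed a gene where the fold passed 1.5 and the q-value of Kal's Z-test was under 0.05. Unlisted genes carry no value in the table, so none of them can be called unchanged.

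Cyclophilin D is a peptidyl-prolyl isomerase of the mitochondrial matrix that promotes opening of the mitochondrial permeability transition pore. Prolonged opening of this pore collapses the membrane potential and releases matrix contents. LPS, a cell wall component of Gram-negative bacteria, is sensed by Toll-like receptor 4 and drives a systemic inflammatory response. In this response hepatocytes make acute phase proteins, while much of their metabolic, transport and detoxifying gene expression is known to decline.

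Of the 963 genes, 595 (61.8%) were higher and 368 (38.2%) were lower in the CypD-/- + LPS library than in the WT + LPS library. The genes that were higher had a median fold of 2.71, and 443 of them passed 2-fold, 150 passed 4-fold and 25 passed 10-fold. The genes that were lower had a median fold of 2.14, with 217, 36 and 12 genes past the same folds. Over all listed genes the median log2 fold was 0.91. Most of the listed genes also appeared in another comparison, 869 of them in that of WT + LPS with WT control and 532 in that of CypD-/- + LPS with CypD-/- control. These comparisons share libraries with the one described here, so they are no independent evidence for it. They do allow the libraries to be set side by side, because folds that share a library can be multiplied. A level below is therefore the product of the deposited folds with the WT control library set to 1, and 545 genes had such a level in all 4 libraries.

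**Figure D1:**
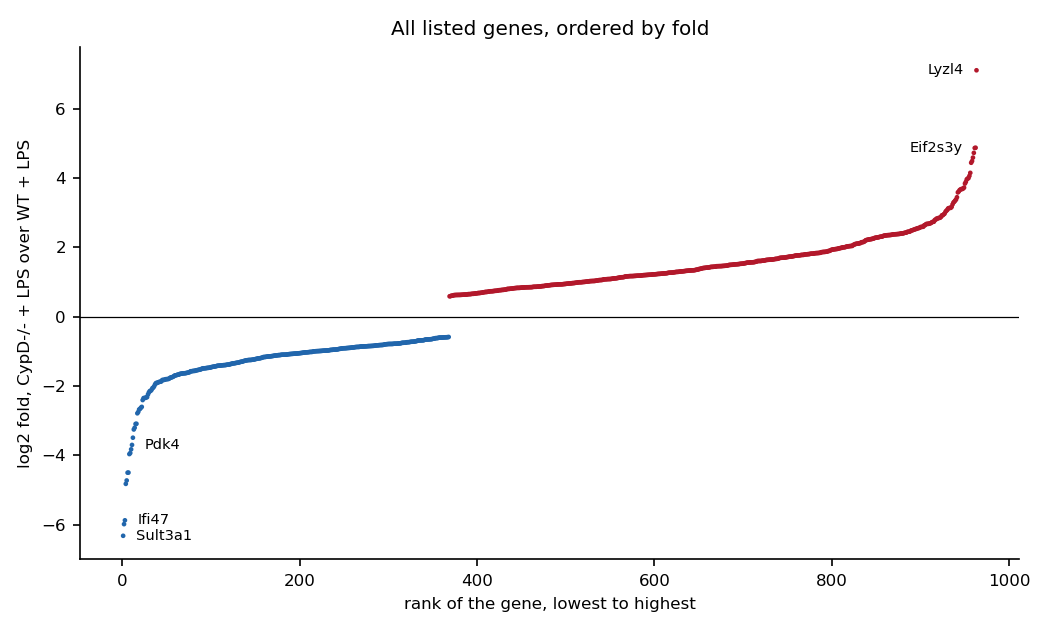
All 963 listed genes in order of their log2 fold between the CypD-/- + LPS and WT + LPS libraries (vertical axis), with the rank of the gene on the horizontal axis. The 368 genes that were lower are blue and the 595 that were higher are red, and the gap around 0 is the 1.5-fold limit of the deposited table.

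*Ppif* itself was not listed between the LPS-treated libraries. It was 2.20-fold lower in WT + LPS than in WT control and 2.72-fold lower in CypD-/- control than in WT control, and was not listed after LPS in CypD-/- mice. The deleted exons are only part of the transcript, and a value over the whole gene does not check the deletion. Another check concerned the sex of the pooled animals, because the methods name males only. *Eif2s3y*, a Y-linked translation factor gene, had a level of 0.0401 in WT + LPS, 1.98 in CypD-/- control and 1.17 in CypD-/- + LPS, and was 29.2-fold higher in CypD-/- + LPS than in WT + LPS. *Ddx3y*, a Y-linked RNA helicase gene, had a level of 0.0694 in WT + LPS and 0.992 in CypD-/- + LPS and was 14.3-fold higher. *Uty*, a further Y-linked gene, was 13.6-fold lower in WT + LPS than in WT control and was not listed between the LPS-treated libraries. Thus Y-linked transcripts were scarcest in the WT + LPS library among the libraries with a value. The control libraries differed too, as *Eif2s3y* was 1.98-fold lower in WT control than in CypD-/- control.

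On the X chromosome 8 listed genes were higher and 10 were lower. Of the latter, the partners of Y-linked genes and *Mid1* are given here, chosen after their values were seen. *Kdm6a*, the X-linked partner of *Uty*, had a level of 3.89 in WT + LPS and 1.05 in CypD-/- + LPS and was 3.70-fold lower. *Ddx3x* stood at 2.46 in WT + LPS and 0.966 in CypD-/- + LPS, a 2.54-fold difference, and *Eif2s3x* was 1.79-fold lower. *Mid1*, an X-linked ubiquitin ligase gene, stood at 30.5 and 4.54. All of these were higher in the library that was low in Y-linked transcripts, while other X-linked genes such as *Pfkfb1* (6.39-fold higher in CypD-/- + LPS) lay on the other side. The X inactivation transcript was not analysed here.

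The LPS-treated libraries also differed in the liver genes that are known to differ between male and female mice. Of 37 genes that are male-predominant, 27 rose in the CypD-/- + LPS library relative to WT + LPS and none fell, with a median log2 fold of 2.84. Of 21 genes of the major urinary proteins, the pheromone carriers that male mouse liver secretes, 17 were higher and none was lower. Of 40 female-predominant genes 14 were lower and 1, the phenobarbital-inducible *Cyp2b10*, was higher (6.0-fold). These lists held 9 of the 15 largest rises and 11 of the 15 largest falls. *Cyp4a12a*, a fatty acid hydroxylase of male liver, stood at 0.0384 in WT + LPS and 1.12 in CypD-/- + LPS and was 29.1-fold higher. *Mup7* stood at 0.103 and 2.23, a 21.6-fold difference, but the *Mup* genes are nearly identical copies that share reads, and the value of any single copy is uncertain. *Sult3a1*, a sulfotransferase of female liver, stood at 0.364 and 0.00457 and was 79.7-fold lower, which was the largest fall in the table. Copies within the *Sult2a*, *Cyp4a12*, *Cyp3a41* and *Gstp* families share reads in the same way. *Sult3a1* was also low in CypD-/- control, at 0.0215. The same held for *Sult2a1*, at 0.637 in WT + LPS, 0.0211 in CypD-/- control and 0.0101 in CypD-/- + LPS. Both genes were thus lower in each CypD-/- library than in either WT library. *Eif2s3y* stood the other way, with CypD-/- control (1.98) and CypD-/- + LPS (1.17) both above either WT library. In *Sult3a1* and *Sult2a1* WT control, the reference of every level, thus also differed from the CypD-/- libraries. In *Eif2s3y* it differed from CypD-/- control. Leaving out the Y-linked list, the lists of either sex and the major urinary proteins, 54 genes in all, 909 genes remained, of which 555 were higher and 354 lower (61.1% higher). The part of sex-linked expression in the results below was not tested, and with 1 library a group it cannot be told apart from that of the genotype.

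**Figure D2:**
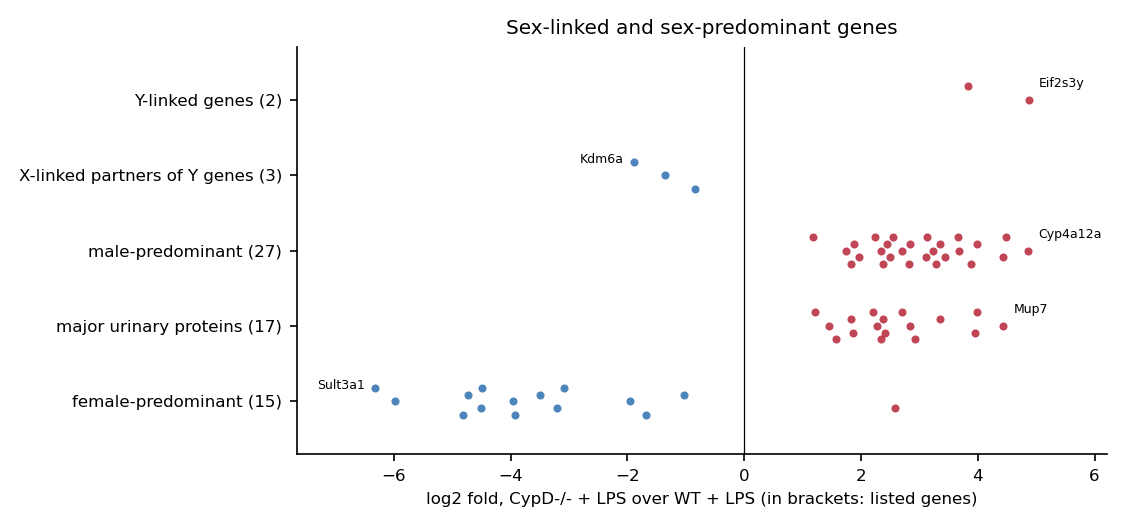
Log2 fold between CypD-/- + LPS and WT + LPS (horizontal axis) for each listed gene of the Y-linked list, the X-linked partners of Y-linked genes, and the sex-predominant and major urinary protein lists. Each point is 1 gene; both Y-linked genes, all 27 male-predominant genes and all 17 major urinary protein genes lie right of 0, and 14 of the 15 female-predominant genes lie left of it.

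The genes were grouped by function into 81 lists with 2579 different members, of which 362 (14.0%) were higher and 198 (7.68%) were lower. These shares are the background for each list below. In 24 lists every listed member was higher, in 20 every listed member was lower, and 34 lists had members in both directions. Among lists with at least 5 listed members, 16 were higher only and 7 were lower only. In broad terms, enzymes and transporters of the hepatocyte made up the lists that were higher, and interferon, inflammatory, protein folding and RNA-binding genes the lists that were lower.

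**Figure D3:**
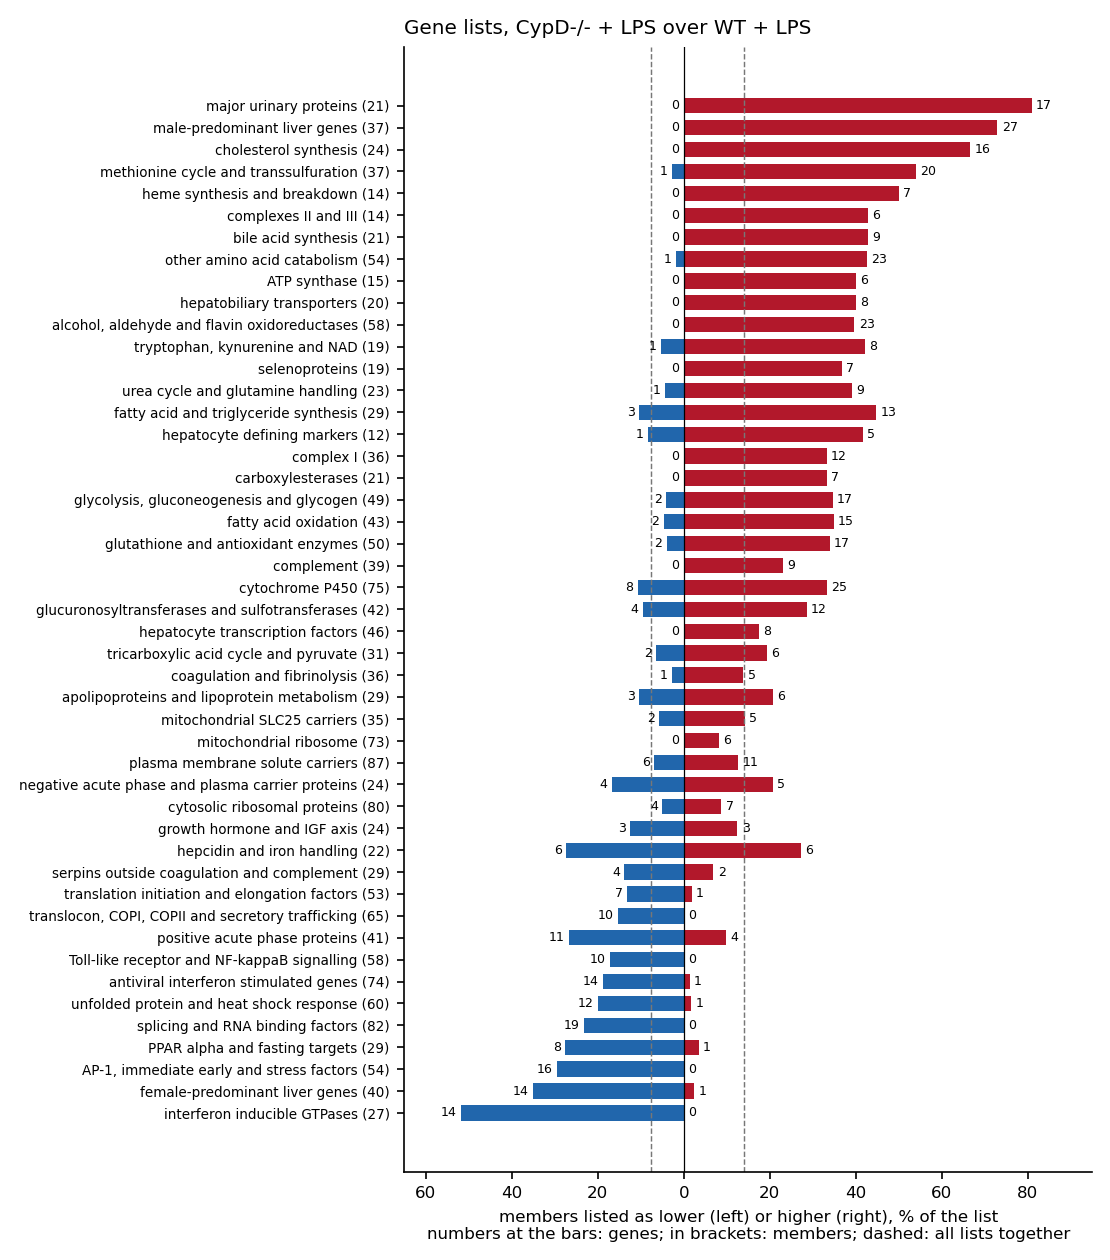
Share of each list's members that were lower (blue, left) or higher (red, right) in CypD-/- + LPS than in WT + LPS, for lists with at least 6 listed genes. The dashed lines mark the 7.68% and 14.0% of all list members, cholesterol synthesis reaches 66.7% on the right and the interferon inducible GTPases 51.9% on the left.

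Promoters are shown for cholesterol synthesis, whose listed members were all higher, and for the interferon genes, whose listed members were all lower except *Bst2*. SREBP factors, which control cholesterol synthesis, bind sterol regulatory elements, and the factors activated by interferons bind the interferon-stimulated response element or the gamma-activated site. RefSeq promoters of the build GRCm38.p6, from 250 bases before to 50 bases after the start of a transcript, were found for 754 of the 963 genes and searched on both strands. The letters TCACNCCAC, a sterol regulatory element, occurred in 408 of 32851 promoters (1.24%) and in 1 of 17 listed genes that had a promoter in the lists of cholesterol synthesis and of uptake and SREBP control, the latter with members in both directions. That gene was *Hmgcs1*, a synthase of the mevalonate pathway, with the match 137 bases before its start. In its promoter (chr13:119690101-119690400, plus strand) the match is in capitals.
Hmgcs1: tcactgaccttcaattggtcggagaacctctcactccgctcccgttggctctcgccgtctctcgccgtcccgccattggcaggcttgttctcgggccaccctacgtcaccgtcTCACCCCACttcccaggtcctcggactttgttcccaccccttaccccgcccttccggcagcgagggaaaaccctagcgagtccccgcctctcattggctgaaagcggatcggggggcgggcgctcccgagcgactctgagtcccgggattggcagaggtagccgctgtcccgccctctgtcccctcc

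An interferon-stimulated response element, here GAAA, any 2 bases and GAAA again, occurred in 1131 promoters (3.44%) and in 13 of the 21 listed interferon genes that had a promoter. The gamma-activated site TTCNNNGAA occurred in 2726 promoters (8.30%) and in 7 of these 21 genes. In *Bst2* a match of the former overlapped a match of the latter. Among the 13 genes the largest falls belonged to *Gbp3*, *Gm12250*, *Gbp5* and *Rsad2*, whose promoters are shown with the matches of the former in capitals. The sequences are written on the strand of the gene and all matches lay on the other strand, so that they read TTTC, any 2 bases and TTTC. Their positions are chr3:142559794-142560093 (plus strand), chr11:58183593-58183892 (plus strand), chr3:142496684-142496983 (plus strand) and chr12:26456403-26456702 (minus strand). A match is a description of the sequence, and binding was not measured.
Gbp3: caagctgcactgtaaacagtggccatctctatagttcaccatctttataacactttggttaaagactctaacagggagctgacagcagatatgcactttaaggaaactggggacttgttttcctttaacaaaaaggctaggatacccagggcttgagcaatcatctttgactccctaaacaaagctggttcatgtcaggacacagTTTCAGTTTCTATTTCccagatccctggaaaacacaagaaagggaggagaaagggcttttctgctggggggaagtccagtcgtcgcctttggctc
Gm12250: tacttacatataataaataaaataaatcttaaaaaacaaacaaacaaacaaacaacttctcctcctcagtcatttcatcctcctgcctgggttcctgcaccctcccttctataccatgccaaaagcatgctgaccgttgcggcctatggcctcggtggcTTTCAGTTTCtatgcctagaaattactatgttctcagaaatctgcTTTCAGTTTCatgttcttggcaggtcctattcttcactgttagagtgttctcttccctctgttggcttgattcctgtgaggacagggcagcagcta
Gbp5: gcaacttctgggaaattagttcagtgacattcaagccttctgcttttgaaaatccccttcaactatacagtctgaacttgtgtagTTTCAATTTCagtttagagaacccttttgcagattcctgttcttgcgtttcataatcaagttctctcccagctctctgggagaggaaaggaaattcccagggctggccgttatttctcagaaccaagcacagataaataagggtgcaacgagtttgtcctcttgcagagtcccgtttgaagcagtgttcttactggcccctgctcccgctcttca
Rsad2: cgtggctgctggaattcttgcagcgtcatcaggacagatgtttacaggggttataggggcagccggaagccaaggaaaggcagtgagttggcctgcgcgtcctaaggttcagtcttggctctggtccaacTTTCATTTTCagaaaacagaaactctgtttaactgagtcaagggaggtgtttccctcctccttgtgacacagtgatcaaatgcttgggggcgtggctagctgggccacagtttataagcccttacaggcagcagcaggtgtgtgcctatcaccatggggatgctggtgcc

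Cholesterol synthesis, which runs from acetyl-CoA through mevalonate and squalene, had the largest share of higher members among the metabolic lists. Of 24 members 16 were higher and none was lower, with a median log2 fold of 1.61, and 10 remained at a q-value limit of 0.001. *Fdps*, which makes farnesyl diphosphate, had a level of 0.289 in WT + LPS, 2.51 in CypD-/- control and 1.48 in CypD-/- + LPS, and was 5.13-fold higher in CypD-/- + LPS than in WT + LPS. *Acly*, which supplies cytosolic acetyl-CoA, stood at 0.234, 1.98 and 1.20 in the same order, a 5.10-fold difference. Both were above WT control in each CypD-/- library and below it in WT + LPS. *Hmgcs1*, whose promoter is printed above, stood at 0.285, 1.92 and 0.977 and was 3.42-fold higher. *Idi1*, the isopentenyl diphosphate isomerase, stood at 0.153, 2.06 and 0.497. Each of these 4 genes was above 1 in CypD-/- control. Further listed members were *Pmvk*, *Acat2*, *Sc5d*, *Lss*, *Dhcr7*, *Fdft1*, *Nsdhl*, *MSMO1*, *Ebp*, *Cyp51* and *Sqle*, with folds from 1.75 (*Sqle*) to 4.30 (*Pmvk*).

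The genes that control this pathway were fewer. Of 24 members of the list of cholesterol uptake and SREBP control, 3 were higher (12.5%) and 2 were lower (8.33%), near the background shares. *Srebf1*, which encodes the SREBP factor of fatty acid synthesis, stood at 0.152 in WT + LPS, 1.48 in CypD-/- control and 0.472 in CypD-/- + LPS, and was 3.11-fold higher. *Insig1*, which retains SREBP in the endoplasmic reticulum, stood at 0.311, 1.61 and 0.739 and was 2.38-fold higher. *Nr1h3*, the gene of the oxysterol receptor LXR alpha, was 2.71-fold higher. The cholesterol exporter *Abca1*, at 4.17 in WT + LPS and 2.76 in CypD-/- + LPS, was 1.51-fold lower, and the phosphatidate phosphatase *Lpin1* was 2.12-fold lower.

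Fatty acid and triglyceride synthesis moved with cholesterol synthesis, with 13 of 29 members higher and 3 lower. *Acss2*, a cytosolic acetyl-CoA synthetase, had a level of 0.101 in WT + LPS, 2.69 in CypD-/- control and 1.27 in CypD-/- + LPS, and was 12.5-fold higher. *Elovl3*, a fatty acid elongase that also stands in the male-predominant list, stood at 0.0772, 2.41 and 1.73, a 22.4-fold difference. *Thrsp*, a lipogenic nuclear protein gene, stood at 0.260, 2.75 and 1.72 and was 6.61-fold higher. In these genes the CypD-/- control library was also above WT control. *Gpam*, the first acyltransferase of glycerolipid synthesis, stood at 0.335, 2.54 and 1.43 and was 4.26-fold higher. The desaturase *Fads2* stood at 0.0802, 0.917 and 0.325 and was 4.05-fold higher. The 3 lower members were *Lpin1*, the triglyceride lipase gene *Pnpla2* (2.08-fold) and the elongase *Elovl5* (1.73-fold).

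The lists of fatty acid oxidation and of targets of fasting and its receptor PPAR alpha did not move alike. The lists overlap, so the difference describes them as drawn and not all targets of the receptor. Of 43 oxidation genes 15 were higher and 2 were lower, with a median log2 fold of 0.92. *Acsl1*, which activates long-chain fatty acids, stood at 0.144 in WT + LPS, 0.865 in CypD-/- control and 0.325 in CypD-/- + LPS, and was 2.25-fold higher. *Hadh*, a matrix dehydrogenase of beta-oxidation, stood at 0.187, 1.01 and 0.429 and was 2.29-fold higher. Past 2-fold, 8 oxidation genes were higher and none was lower. Of 29 PPAR alpha and fasting targets 1 was higher and 8 were lower, with a median log2 fold of -1.65. The higher gene was *Cyp4a10*, which is also in the oxidation list, and 7 were lower without the sex-predominant genes. *Pdk4*, the kinase that inhibits pyruvate dehydrogenase, stood at 167 in WT + LPS, 0.682 in CypD-/- control and 12.9 in CypD-/- + LPS, and was 12.97-fold lower. Its relative *Pdk2* stood at 0.0580, 0.904 and 0.283 and was 4.88-fold higher. Thus 2 kinases of the same enzyme lay on opposite sides. *Cidec*, a lipid droplet protein gene, stood at 26.0, 0.788 and 6.49 and was 4.01-fold lower. *Angptl4*, an inhibitor of lipoprotein lipase, stood at 5.40, 0.189 and 1.76 and was 3.07-fold lower. The fatty acid transporter *Cd36* was 3.18-fold lower and the droplet coat gene *Plin2* was 1.81-fold lower.

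Bile acid synthesis and the transporters of the hepatocyte membrane were higher only. Of 41 members of these 2 lists 17 were higher and none was lower. *Cyp7a1*, the rate-limiting enzyme of bile acid synthesis, had a level of 0.0570 in WT + LPS, 1.57 in CypD-/- control and 0.329 in CypD-/- + LPS, and was 5.77-fold higher. *Cyp8b1*, which directs synthesis to cholic acid, stood at 0.264, 1.99 and 0.827 and was 3.13-fold higher. *Cyp7b1*, of the alternative pathway and also male-predominant, stood at 0.138, 1.42 and 0.810. The bile acid receptor gene *Nr1h4* was 2.98-fold higher. Among the transporters, *Abcb11*, the bile salt export pump, stood at 0.0733, 1.21 and 0.361 and was 4.93-fold higher. *Abcc2*, which exports conjugates into bile, stood at 0.0746, 0.938 and 0.303 and was 4.06-fold higher. The uptake carrier *Slc10a1* stood at 0.139, 1.30 and 0.302 and was 2.18-fold higher. All of these stood below 1 in both LPS-treated libraries, and lowest in WT + LPS.

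**Figure D4:**
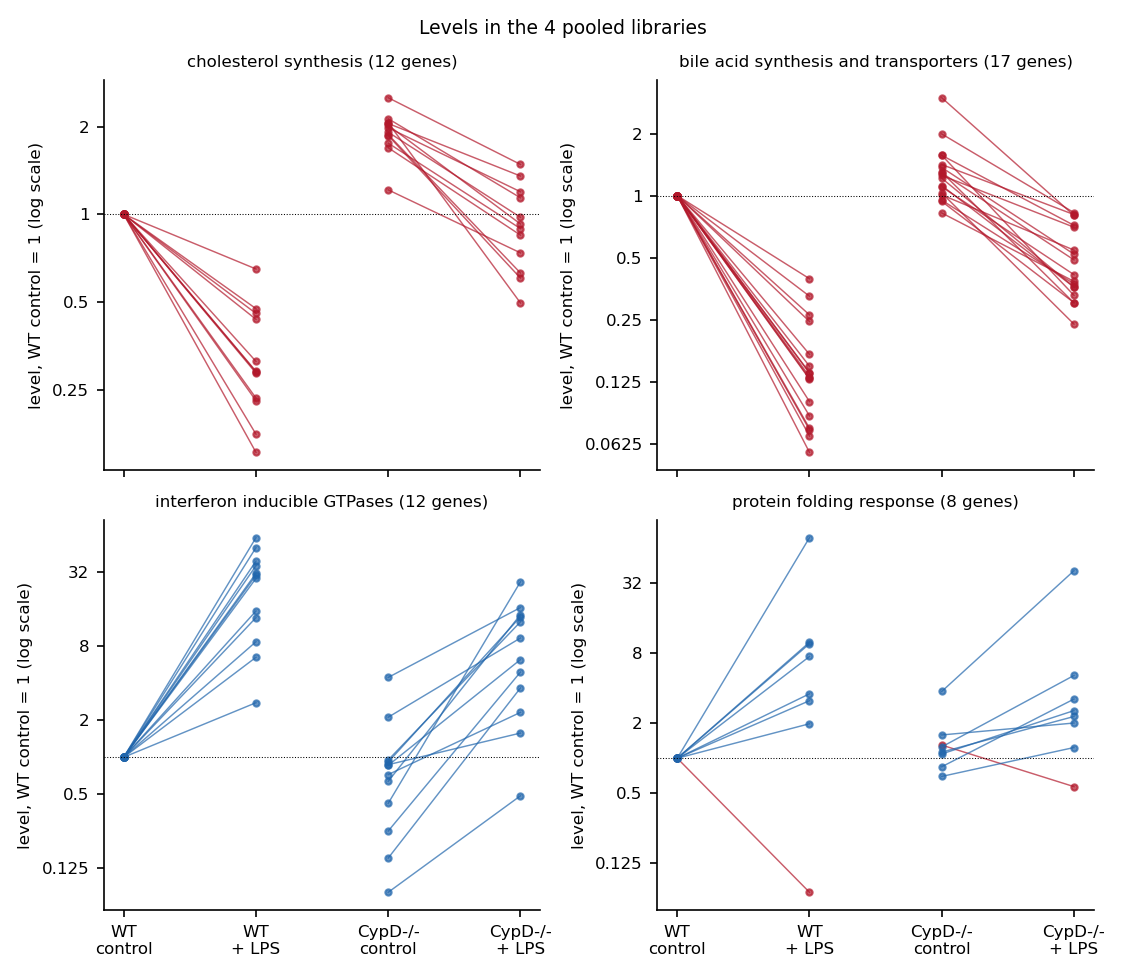
Level of each gene in the 4 pooled libraries on a log scale with WT control set to 1, for listed genes of 4 panels that had a value in every library. Lines join the control and LPS library of a genotype; red genes were higher and blue genes lower in CypD-/- + LPS than in WT + LPS. The 12 cholesterol synthesis genes drawn span 0.153 to 0.650 in WT + LPS and 0.497 to 1.48 in CypD-/- + LPS.

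The enzymes that metabolise drugs, steroids and other foreign compounds formed the largest group. Of 245 members of 5 lists, the glutathione enzymes included, 84 were higher and 14 were lower. Among 75 cytochrome P450 genes 25 were higher and 8 were lower, and without the sex-predominant genes 19 were higher and 2 were lower. At a 2-fold limit 16 P450 genes were higher. *Cyp3a11*, a broad drug-metabolising enzyme, had a level of 0.235 in WT + LPS, 1.20 in CypD-/- control and 0.639 in CypD-/- + LPS, and was 2.72-fold higher. *Cyp2e1*, which oxidises ethanol and paracetamol, stood at 0.189, 0.891 and 0.375 and was 1.99-fold higher. *Cyp1a2* stood at 0.201, 0.854 and 0.456 and was 2.27-fold higher. In CypD-/- + LPS each of these 3 genes lay above WT + LPS and below both control libraries. *Cyp2r1*, a vitamin D 25-hydroxylase, was 5.02-fold higher.

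Of 58 alcohol, aldehyde and flavin oxidoreductases 23 were higher and none was lower. *Adh4* stood at 0.0666 in WT + LPS, 0.995 in CypD-/- control and 0.383 in CypD-/- + LPS, a 5.75-fold difference. *Aldh1a1*, which makes retinoic acid, stood at 0.114, 1.43 and 0.597 and was 5.22-fold higher. *Aox3*, an aldehyde oxidase, stood at 0.0714, 1.44 and 0.286 and was 4.0-fold higher. Of 42 glucuronosyltransferases and sulfotransferases 12 were higher and 4 were lower, and the 4 lower genes were sulfotransferases of the female-predominant list. *Ugt2b35* was 8.75-fold higher and *Ugdh*, which makes the glucuronate donor, was 6.43-fold higher. Among these *Sult1e1*, the estrogen sulfotransferase, differed from the other sulfotransferases in having risen in WT mice, with a level of 48.0 in WT + LPS, 0.126 in CypD-/- control and 5.22 in CypD-/- + LPS. All 7 listed carboxylesterase genes of 21 were higher, *Ces3a* by 3.11-fold, and 4 passed 2-fold.

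Glutathione and antioxidant enzymes were mostly higher, 17 of 50, with 2 lower. *Cat*, the gene of catalase, had a level of 0.0941 in WT + LPS, 1.26 in CypD-/- control and 0.309 in CypD-/- + LPS, and was 3.28-fold higher. *Gpx1*, the cytosolic glutathione peroxidase, stood at 0.385, 0.478 and 0.881 and was 2.29-fold higher. *Gpx4*, which reduces lipid hydroperoxides, was 2.74-fold higher, at 0.327 and 0.895 in the LPS-treated libraries. The lower genes were *Sod2*, the manganese superoxide dismutase of mitochondria, at 3.95 in WT + LPS and 2.38 in CypD-/- + LPS (1.66-fold), and *Glrx*, a glutaredoxin (2.24-fold). Thus the mitochondrial superoxide dismutase, which was raised in WT + LPS, and *Glrx* lay against the direction of the other listed enzymes. The peroxiredoxins *Prdx2*, *Prdx3*, *Prdx5* and *Prdx6* were 1.80-fold to 2.32-fold higher. Of 19 genes of the selenoprotein list 7 were higher and none was lower, among them *Dio1*, the deiodinase that activates thyroid hormone (3.87-fold).

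Amino acid metabolism stood out for the number of genes. Of 130 members of the one-carbon, sulfur, urea cycle, tryptophan and other amino acid lists 58 were higher and 4 were lower. In the methionine and transsulfuration list 20 of 37 were higher and 1 was lower. *Bhmt*, which remethylates homocysteine with betaine, had a level of 0.151 in WT + LPS, 1.22 in CypD-/- control and 0.719 in CypD-/- + LPS, and was 4.76-fold higher. *Cth*, the gamma-lyase that makes cysteine, stood at 0.0551, 0.499 and 0.237 and was 4.30-fold higher. *Shmt1*, a serine hydroxymethyltransferase, stood at 0.0711, 1.04 and 0.375 and was 5.27-fold higher. The single lower gene, *Mat2a*, encodes the methionine adenosyltransferase that is low in resting hepatocytes. It stood at 2.53 in WT + LPS and 0.985 in CypD-/- + LPS and was 2.57-fold lower. *Amt*, of the glycine cleavage system, stood at 0.0591, 1.12 and 0.529 and was 8.95-fold higher. *Hal*, the histidine ammonia-lyase, stood at 0.142, 0.914 and 0.546 and was 3.84-fold higher. *Tat*, the glucocorticoid-inducible tyrosine aminotransferase, was 1.53-fold lower.

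The urea cycle takes up the nitrogen released by this catabolism, and 9 of 23 genes of that list were higher, 5 of them past 2-fold, and 1 was lower. *Cps1*, the first enzyme of the cycle, had a level of 0.216 in WT + LPS, 1.13 in CypD-/- control and 0.448 in CypD-/- + LPS, and was 2.07-fold higher. *Nags*, which makes its activator, was 3.47-fold higher and *Ass1* was 1.94-fold higher. The amino acid importer *Slc38a2* stood at 4.08, 0.553 and 1.46 and was 2.79-fold lower. In the tryptophan, kynurenine and NAD list 8 of 19 were higher and 1 was lower. *Kynu*, the kynureninase, stood at 0.0739, 0.831 and 0.262 and was 3.54-fold higher. *Qprt*, which ends the de novo route to NAD, stood at 0.173, 0.983 and 0.558 and was 3.23-fold higher. *Nampt*, of the salvage route from nicotinamide, stood at 11.6, 1.12 and 5.26 and was 2.20-fold lower. *NAPRT*, of the salvage route from nicotinic acid, stood at 0.134 in WT + LPS and 0.535 in CypD-/- + LPS and was 3.99-fold higher. The salvage enzymes of NAD thus lay on opposite sides.

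Of 14 genes of heme synthesis and breakdown 7 were higher and none was lower. They were *Alas2*, *Abcb6*, *Alad*, *Blvrb*, *Hebp1*, *Alas1* and *Urod*, not all of them enzymes of synthesis. *Alas1*, the regulated first enzyme of synthesis in liver, stood at 0.332 in WT + LPS and 0.750 in CypD-/- + LPS and was 2.26-fold higher. *Alad*, the second enzyme, stood at 0.129, 0.848 in CypD-/- control, and 0.437, and was 3.40-fold higher. The erythroid isoform *Alas2* was 6.35-fold higher. It moved with the globin genes *Hbb-b1* (1.86-fold) and *Hba-a2* (1.78-fold), so that 3 of 17 erythroid and platelet markers were higher and none was lower, and the part of red cells in this result was not tested. Iron handling was divided, with 6 of 22 genes higher and 6 lower. *Slc40a1*, the gene of the iron exporter ferroportin, had a level of 0.0595 in WT + LPS, 0.821 in CypD-/- control and 0.304 in CypD-/- + LPS, and was 5.11-fold higher. *Hfe2*, the hemojuvelin gene that promotes hepcidin expression, stood at 0.107, 1.40 and 0.680 and was 6.38-fold higher. Hepcidin itself causes ferroportin to be degraded. *Hamp2*, a gene of the hepcidin family, stood at 2.47, 0.512 and 0.159 and was 15.6-fold lower, and is also a female-predominant gene. *Slc39a14*, a zinc and iron importer, stood at 5.88, 0.879 and 2.10 and was 2.81-fold lower. The metallothioneins *Mt1* (3.13-fold) and *Mt2* (3.55-fold), which bind zinc, were lower too, with levels of 23.7 and 32.8 in WT + LPS against 7.55 and 9.23 in CypD-/- + LPS.

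The nuclear genes of the respiratory chain and the ATP synthase were higher or not listed. Of 81 genes 26 were higher and none was lower, with 12 of 36 for complex I, 6 of 14 for complexes II and III, 2 of 16 for complex IV and 6 of 15 for the ATP synthase. The share for complex IV, 12.5%, was near the background of 14.0%. The folds were small, and only 8 of the 26 genes passed 2-fold. The largest in complex I was *Ndufa13*, at 0.254 in WT + LPS, 0.576 in CypD-/- control and 0.662 in CypD-/- + LPS, a 2.61-fold difference. *Ndufs8*, an iron-sulfur subunit, stood at 0.320, 1.23 and 0.687 and was 2.15-fold higher. *Sdhb*, the iron-sulfur subunit of complex II, stood at 0.365 in WT + LPS and 0.744 in CypD-/- + LPS and was 2.04-fold higher. *Cyc1*, the cytochrome c1 gene of complex III, stood at 0.361, 1.13 and 0.656 and was 1.82-fold higher. *Cox4i1* of complex IV was 1.54-fold higher, and *Atp5h* of the ATP synthase, at 0.332 and 0.679 in the LPS-treated libraries, was 2.04-fold higher. None of the 13 mitochondrially encoded genes was listed. The list of candidates for the permeability transition pore had 2 higher members of 15 (13.3%), again near the background. They were the channel gene *Vdac1* (1.71-fold) and the ATP synthase beta subunit *Atp5b* (1.55-fold).

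Other mitochondrial lists gave fewer genes. Of 73 mitochondrial ribosome genes 6 were higher and none was lower, a share of 8.22% against 14.0% for all lists. *Mrpl34* was 4.30-fold and *Mrpl14* 4.11-fold higher, and 2 of the 6 passed a q-value limit of 0.001. Of 35 carriers of the inner membrane 5 were higher, 3 of them at a q-value limit of 0.001, and 2 were lower. These shares, 14.3% and 5.71%, were near the background of 14.0% and 7.68%. *Slc25a11*, the oxoglutarate carrier, stood at 0.0842 in WT + LPS and 0.522 in CypD-/- + LPS and was 6.20-fold higher. *Slc25a33*, a pyrimidine nucleotide carrier, stood at 2.82 and 1.19 and was 2.37-fold lower. In the tricarboxylic acid cycle 6 of 31 genes were higher and 2 were lower. Among the 15 largest rises was *Ethe1*, a mitochondrial sulfur dioxygenase, at 0.050 in WT + LPS and 0.885 in CypD-/- + LPS (17.7-fold).

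**Figure D5:**
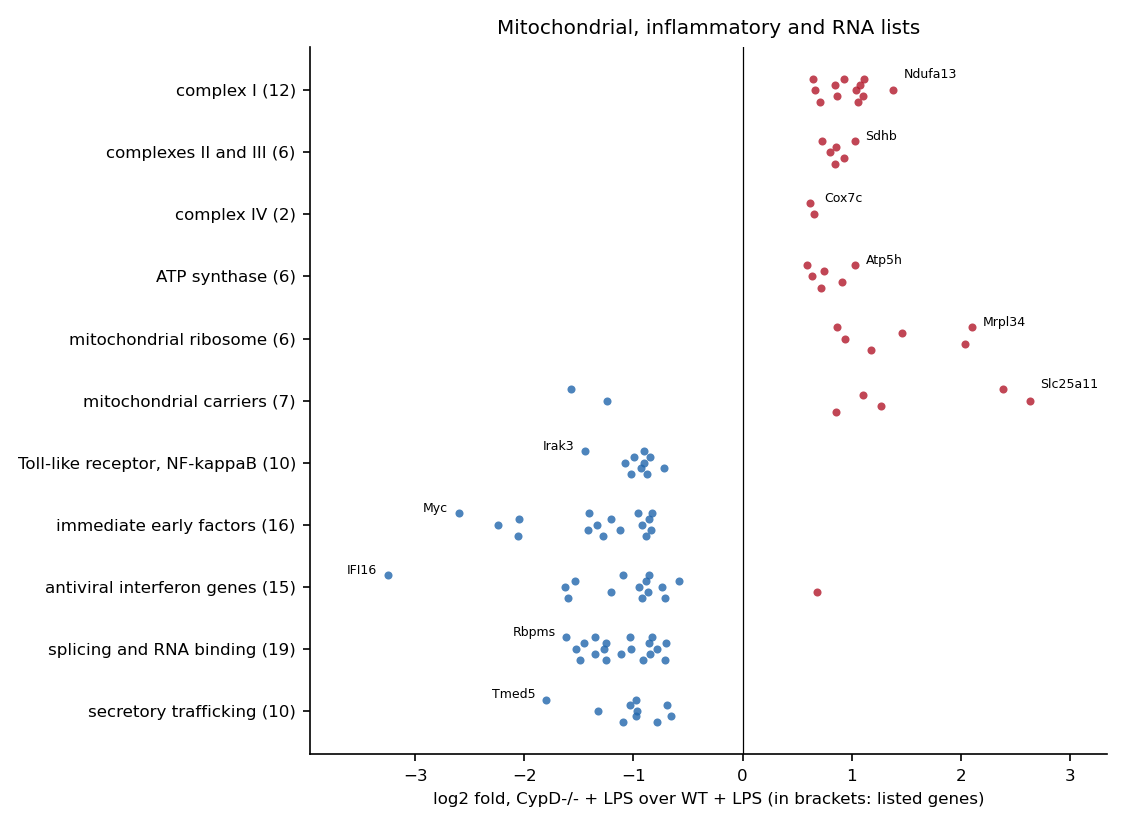
Log2 fold between CypD-/- + LPS and WT + LPS (horizontal axis) for the listed genes of mitochondrial, inflammatory, RNA-binding and secretory lists, with 1 point per gene and the gene farthest from 0 named. All 26 respiratory chain and ATP synthase genes lie right of 0 and all 10 Toll-like receptor and NF-kappaB genes and all 19 splicing and RNA-binding genes lie left of it.

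Glucose metabolism followed the enzyme lists, with 17 of 49 genes higher, 11 of them at a q-value limit of 0.001, and 2 lower. *Slc2a2*, the hepatic glucose transporter, had a level of 0.0777 in WT + LPS, 1.29 in CypD-/- control and 0.270 in CypD-/- + LPS, and was 3.47-fold higher. *Pklr*, the liver pyruvate kinase, stood at 0.328, 2.29 and 0.662 and was 2.02-fold higher. Glycogen genes were divided. *Pygl*, the liver glycogen phosphorylase, was 2.34-fold higher at 0.220, 1.56 and 0.513. *Gys2*, the liver glycogen synthase, was 2.05-fold lower at 0.421, 0.670 and 0.206. *Ppp1r3g*, which targets a phosphatase to glycogen, stood at 16.4 in WT + LPS and 1.93 in CypD-/- + LPS and was 8.50-fold lower.

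Among hepatocyte transcription factors 8 of 46 were higher, 17.4% against a background of 14.0%, and none was lower, and at a q-value limit of 0.001 only 2 were higher. *Hnf4a*, a central factor of hepatocyte identity, stood at 0.442 in WT + LPS and 0.833 in CypD-/- + LPS and was 1.89-fold higher. *Nr2f6*, an orphan nuclear receptor gene, was 3.62-fold higher and *Atf5* was 2.27-fold higher. The clock lists gave 1 of 16 core genes (6.25%) and 3 of 15 output genes (20.0%), all lower. The core share was below the background of 7.68%. *Klf10*, a factor with clock-controlled expression, stood at 6.76 in WT + LPS and 1.64 in CypD-/- + LPS and was 4.13-fold lower. In the growth hormone and IGF axis 3 of 24 were higher and 3 were lower. *Igfals*, which carries IGF in plasma, stood at 0.0649, 0.774 and 0.328 and was 5.05-fold higher. *Igfbp1*, a binding protein of stress and fasting, stood at 55.1, 0.336 and 20.7 and was 2.66-fold lower.

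The plasma proteins made by hepatocytes were mixed. Of 41 positive acute phase genes 4 were higher and 11 were lower, 6 of the latter past 2-fold, with a median log2 fold of -0.74. *Lcn2*, lipocalin, which binds bacterial iron carriers, had a level of 179 in WT + LPS, 0.802 in CypD-/- control and 81.1 in CypD-/- + LPS, and was 2.21-fold lower. *Fgg*, the fibrinogen gamma chain, stood at 7.96, 0.936 and 4.97 and was 1.60-fold lower. *Reg3g*, an antimicrobial lectin gene, went the other way, at 26.6, 0.963 and 265, a 9.95-fold difference. Its relative *Reg3b* was 12.8-fold higher and had no level in WT + LPS. Of 39 complement genes 9 were higher (23.1%) and none was lower. Without the sex-predominant genes 6 were higher, near the background share of 14.0%. *C9*, a terminal component, stood at 0.212, 1.59 and 0.830 and was 3.91-fold higher, and *C8a* and *C8b* were 3.20-fold and 3.34-fold higher. Of the 9 higher genes, *C6*, *C9* and *C8b* are also male-predominant genes. In coagulation 5 of 36 were higher (13.9%), near the background share, and 3 of them passed 2-fold. Only 1 was lower (2.78%), below the background of 7.68%.

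The inflammatory signalling lists were lower only, but to unlike extents. Of 307 members 44 were lower and none was higher. The TNF superfamily and TRAF list had 2 of 38 members lower (5.26%), below the background of 7.68%. MAP kinases and DUSP phosphatases had 4 of 42 lower (9.52%), near the background. The Toll-like receptor and NF-kappaB list had 10 of 58 members lower, *Irak3*, *Cd14*, *Tab2*, *Irak2*, *Nlrp12*, *Rela*, *Il1r1*, *Nfkbia*, *Tbk1* and *Chuk*. Only 3 of them passed 2-fold and 4 a q-value limit of 0.001. *Irak3*, a negative regulator of the pathway, stood at 49.0 in WT + LPS, 0.568 in CypD-/- control and 18.0 in CypD-/- + LPS, and was 2.72-fold lower. *Irak2*, a kinase of the signalling complex, stood at 4.49 in WT + LPS and 2.26 in CypD-/- + LPS and was 1.99-fold lower. *Nfkbia*, the inhibitor of NF-kappaB that NF-kappaB induces, stood at 3.81, 0.623 and 2.08 and was 1.83-fold lower. Activators and inhibitors of the pathway were thus lower together. *Il1r1*, the interleukin-1 receptor gene, stood at 19.8, 0.867 and 10.6 and was 1.86-fold lower.

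Among AP-1, immediate early and stress factors 16 of 54 were lower and none was higher, with a median log2 fold of -1.24, and 10 of the 16 passed 2-fold. *Myc* had a level of 12.3 in WT + LPS and 2.03 in CypD-/- + LPS and was 6.07-fold lower. *Egr1*, an immediate early factor, stood at 11.05 and 2.65 and was 4.17-fold lower. *Zfp36l2*, which destabilises AU-rich messenger RNA, stood at 5.58 and 1.18 and was 4.73-fold lower. *Cdkn1a*, the cell cycle inhibitor p21, stood at 87.1, 0.649 in CypD-/- control, and 45.8, and was 1.90-fold lower. Of 33 JAK, STAT and SOCS genes 5 were lower, 3 of them past 2-fold. *Lepr*, the leptin receptor, stood at 25.9, 0.314 and 5.11 and was 5.07-fold lower. *Stat3*, the factor through which interleukin-6 induces acute phase genes, stood at 5.70, 0.808 and 2.86 and was 1.99-fold lower. *Map3k6*, a stress kinase gene, stood at 45.3 and 12.03 and was 3.77-fold lower.

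Chemokines and their receptors gave 4 of 50 genes (8.0%), all lower, a share near the background of 7.68%. Interleukins, colony stimulating factors and their receptors gave 5 of 46 (10.9%), all lower. Of these genes 1 and 2 passed 2-fold. *Ccl2*, which attracts monocytes, stood at 107 in WT + LPS, 0.988 in CypD-/- control and 62.0 in CypD-/- + LPS, and was 1.73-fold lower. *Cxcl10*, an interferon-induced chemokine, stood at 76.0, 0.462 and 39.4 and was 1.93-fold lower. *Ccl5* stood at 13.6, 0.152 and 4.08 and was 3.33-fold lower. *Nos2*, the inducible nitric oxide synthase, was 62.9-fold higher after LPS in WT mice and 33.8-fold higher after LPS in CypD-/- mice, and was not listed between the LPS-treated libraries. Of 21 members of the nitric oxide and tetrahydrobiopterin list 5 were higher (23.8%) and none was lower. *Spr*, *Pcbd1* and *Qdpr*, which make or recycle the cofactor tetrahydrobiopterin, were higher by 3.25-fold, 2.82-fold and 2.78-fold. The others were *Gchfr*, which inhibits its synthesis (2.50-fold), and the urea cycle gene *Ass1*.

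The interferon inducible GTPases had the largest share of lower members among the lists with at least 6 listed genes. Of 101 interferon genes 28 were lower and 1 was higher, and among 27 interferon inducible GTPases, which attack the vacuoles of intracellular microbes, 14 were lower and none was higher. *Gbp3* had a level of 50.6 in WT + LPS, 0.913 in CypD-/- control and 13.9 in CypD-/- + LPS, and was 3.65-fold lower. *Gbp5*, which promotes inflammasome assembly, stood at 39.3, 0.949 and 12.6 and was 3.12-fold lower. *Gm12250* stood at 15.4, 0.251 and 4.92 and was 3.14-fold lower. These genes carry the promoter matches printed above, and in CypD-/- + LPS each stood above both control libraries. *Ifi47* was the extreme, at 28.4, 0.0798 and 0.486, a 58.5-fold difference, and was below WT control in both CypD-/- libraries. *Irgm1*, which regulates the other GTPases, stood at 30.1, 4.45 and 16.5 and was 1.83-fold lower. Of 74 antiviral genes 14 were lower and 1 was higher, and 6 were lower at either a 2-fold limit or a q-value limit of 0.001. *Rsad2*, the antiviral enzyme viperin, stood at 45.1, 0.766 and 15.6 and was 2.90-fold lower. *Ifit2*, which acts on viral RNA, stood at 15.7 in WT + LPS and 5.10 in CypD-/- + LPS and was 3.09-fold lower. *Isg15*, a ubiquitin-like modifier, stood at 20.1, 0.784 and 12.3 and was 1.64-fold lower. The single higher gene was *Bst2*, the tetherin of budding virus, by 1.60-fold.

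Protein folding and secretion formed another lower group, with 22 of 123 members lower, 9 of them past 2-fold, and 1 higher. *Hspa5*, the chaperone BiP of the endoplasmic reticulum, had a level of 9.68 in WT + LPS, 1.09 in CypD-/- control and 2.57 in CypD-/- + LPS, and was 3.77-fold lower. *Hsp90b1*, a further chaperone of this compartment, stood at 4.04 in WT + LPS and 1.57 in CypD-/- + LPS and was 2.58-fold lower. *Chac1*, a glutathione-degrading enzyme induced by stress, stood at 79.3, 3.76 and 41.1 and was 1.93-fold lower. *Xbp1*, a factor of the unfolded protein response, stood at 3.13, 1.59 and 2.01 and was 1.56-fold lower. The single higher gene, *Fkbp4*, is a cytosolic co-chaperone of steroid receptors, at 0.0701, 1.30 and 0.569 (8.12-fold). Among trafficking genes 10 of 65 were lower, *Tmed5* by 3.48-fold and *Srp9* by 2.51-fold.

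Splicing and RNA-binding factors were lower only, 19 of 82, with a median log2 fold of -1.12, and 12 passed 2-fold and 8 a q-value limit of 0.001. *Sf1*, which recognises the branch point, stood at 3.51 in WT + LPS and 1.21 in CypD-/- + LPS and was 2.88-fold lower. *Sfpq*, a paraspeckle protein gene, stood at 3.10 and 1.28 and was 2.42-fold lower. *Srsf5*, a splicing regulator, stood at 2.95 and 1.45 and was 2.03-fold lower. Translation factors gave 7 lower, 1 of them past 2-fold, and 1 higher of 53, and cytosolic ribosomal proteins 7 higher and 4 lower of 80, below both background shares. The genes that were higher had shorter transcripts than those that were lower. The median length of the longest GENCODE M21 transcript was 2066 bases (quartiles 1325 and 3121) for 589 higher genes and 3196 bases (quartiles 2193 and 4484) for 363 lower genes, and both had a median of 7 exons. The pooled RNA samples had integrity numbers above 8.5, and the part of transcript length in the result was not tested.

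Markers of cell types other than hepatocytes were seldom listed. Of 237 such markers 7 were higher and 7 were lower, or fewer than the background shares in both directions. In a pooled liver library, fewer cells of a type and less RNA per cell cannot be told apart, and the same holds for the inflammatory genes above. Of 45 Kupffer cell and macrophage markers 3 were higher and 1 was lower. *Cd5l*, a macrophage-secreted protein gene, stood at 0.114 in WT + LPS, 0.582 in CypD-/- control and 0.539 in CypD-/- + LPS and was 4.71-fold higher. Of 42 neutrophil and monocyte markers 2 were lower, *Lcn2* and the granule proteoglycan gene *Srgn* (1.52-fold), and *Lcn2* is also made by hepatocytes. Of 36 endothelial and adhesion genes 2 were lower, *Lyve1* of the sinusoid (2.14-fold) and *Il33* (1.99-fold). Only *Ccl5* of 36 lymphocyte markers was listed, and no marker of pancreas or gut. Of 12 hepatocyte markers 5 were higher, 2 of them past 2-fold, and 1 was lower. The cholangiocyte list held *Tff3*, a mucosal trefoil factor, at 0.0173 in WT + LPS and 0.455 in CypD-/- + LPS (26.4-fold).

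The remaining genes of the extremes stood in few or no lists. *Lyzl4*, a lysozyme-like gene, had the largest rise of all, 137-fold, and its fold over CypD-/- control was listed as infinite, as for a library at 0. *Paox*, a polyamine oxidase, stood at 0.050 in WT + LPS and 0.648 in CypD-/- + LPS and was 12.95-fold higher. *Defb1*, an epithelial defensin, stood at 12.1 and 0.852 and was 14.2-fold lower. *IFI16* was 9.53-fold lower with no level in either library.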

How the data were processed

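Liver RNA of 3 mice per group (integrity number above 8.5) was pooled, depleted of ribosomal RNA and sequenced by the authors as 1 strand-specific library per group on a SOLiD system with 75-base chemistry. Per the study's methods, mapping used CLC Genomics Workbench 6.0.1 and kept reads that aligned over at least 50% of their length at 80% similarity or more, with up to 10 unspecific matches, and the submitters' processing notes name the build GRCm38. The deposited tables hold a signed fold score for each gene between 2 libraries and a q-value that the authors computed by Kal's Z-test with a false discovery rate. They hold only genes past 1.5-fold and a q-value under 0.05, with no counts, levels or expression units, so the depth is unknown and no interval was given. A fold from such a test rests on reads of 2 libraries and misses the variation between mice.

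From these tables, Python 3.11.15 scripts counted genes by direction, took log2 folds and multiplied deposited folds that share a library into levels with WT control at 1. For 71 of the 74 genes listed in all 4 tables the folds closed to within 0.01 log2, and the exceptions were *Mup7*, *Mup20* and *Mup13*. Symbols were matched without regard to letter case, and 956 of the 963 matched RefSeq of GRCm38.p6. Genes on chromosome 16 were not analysed here, and 79 list members on it were left out of the list sizes. Values of a few further genes are not reported here. The counting was tested on simulated data for this comparison, with 8000 genes, and found 200 of 200 changed genes. The simulated levels had no noise and every change passed the fold limit. The result was therefore fixed in advance and checked the counting only, not the Z-test. Figures were drawn with matplotlib 3.10.9.

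Genes were named by rule: *Ppif*, the 15 largest rises and falls without predicted gene models, genes with an infinite fold, and from each list up to 8 members per direction in order of fold, with all listed members for a few lists. Members and lists were chosen with earlier results of these data known. The alternatives were a 2-fold limit, a q-value limit of 0.001, leaving out gene models or sex-linked lists, counting every entry, and levels computed the other way around the design.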

Additional observations from a re-analysis of the deposited data

Results flagged for a closer look

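Of 503 genes listed after LPS in both genotypes, 8 of those reported here had moved in opposite directions in WT and CypD-/- mice. Each has 1 pooled library per group, and the difference between the genotypes was not tested beyond the deposited fold. *Hamp2* was 2.47-fold higher after LPS in WT mice and 3.22-fold lower in CypD-/- mice, with a fold between the LPS-treated libraries of -15.6. *Lars2*, the mitochondrial leucyl-tRNA synthetase, was 3.18-fold higher in WT and 2.67-fold lower in CypD-/- mice, with a fold of -2.61. The other 6 had been lower in WT mice and higher in CypD-/- mice. *Mup4* was 3.13-fold lower and 1.97-fold higher, with a fold of 7.58, and belongs to a male-predominant family of near-identical copies. *Fam25c* was 2.58-fold lower and 2.0-fold higher, with a fold of 3.40. *Saa4*, a serum amyloid A gene expressed constitutively, was 1.60-fold lower and 2.12-fold higher, with a fold of 3.12. *Gpx1* was 2.60-fold lower and 1.84-fold higher, with a fold of 2.29. *Cyp4a10*, a fatty acid hydroxylase and PPAR alpha target, was 4.14-fold lower and 1.55-fold higher, with a fold of 2.20. *Gm7866*, a predicted gene, was 2.04-fold lower and 6.20-fold higher, with a fold of 2.74.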

How the results depend on the processing

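With a q-value limit of 0.001 the number of listed genes was 613 against 963, and the share that was higher was 65.1% against 61.8%; with a 2-fold limit that share was 67.1%. The median level of the CypD-/- + LPS library over the 74 genes in all tables was 0.869, and 0.854 when computed through the CypD-/- control library. At the 2-fold limit the balance turned in the serpins outside coagulation and complement, with 2 higher and 1 lower, and in the cytosolic ribosomal proteins, with 2 higher and 3 lower, since each list then held fewer genes. Of 112 list counts, 46 moved and 4 belonged to these lists at the 2-fold limit, 30 moved at the q-value limit of 0.001, 8 moved without the sex-linked and sex-predominant lists and none moved without 28 gene models. No paired analysis was possible because each group was 1 pooled library and the result came from no test across samples. The unknown depth limits what an unlisted gene can say.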

Other observations

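Among the 403 genes in no list, 233 were higher and 170 were lower, and the genes given here were chosen after their values were seen. Several of the higher genes belong to the peroxisome, the organelle that oxidises very long and branched fatty acids. *Hao1*, the glycolate oxidase, had a level of 0.0975 in WT + LPS, 1.30 in CypD-/- control and 0.477 in CypD-/- + LPS and was 4.89-fold higher. *Uox*, the urate oxidase, stood at 0.0818, 0.728 and 0.235 and was 2.88-fold higher. *Pxmp2*, a channel of the peroxisomal membrane, was 3.27-fold higher and *Pex6*, which recycles the import receptor, was 3.46-fold higher. Others encode mitochondrial proteins, such as *Adck3*, needed for coenzyme Q synthesis, at 0.0565, 1.19 and 0.690 (12.2-fold), and *Car5a*, the carbonic anhydrase of the matrix, at 0.0683, 1.14 and 0.318 (4.66-fold). *Mavs*, the mitochondrial adaptor of RNA sensing, stood at 0.0761, 0.939 and 0.330 and was 4.34-fold higher, against the direction of the interferon genes.

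Of the lower genes in no list, *Txnip*, which binds thioredoxin and is induced by glucose, stood at 24.1 in WT + LPS, 0.963 in CypD-/- control and 5.44 in CypD-/- + LPS and was 4.42-fold lower. *Cd274*, the immune checkpoint ligand PD-L1, stood at 35.7, 0.570 and 12.1 and was 2.96-fold lower. *Agt*, the angiotensinogen gene, stood at 3.02, 0.494 and 0.857 and was 3.52-fold lower. *S100a11*, a calcium-binding protein gene, stood at 47.0 in WT + LPS and 9.23 in CypD-/- + LPS and was 5.09-fold lower.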
